A study of Mus musculus with 6 samples.

Results

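House-keeping genes are the genes against which the other genes of a qRT-PCR plate are measured. On the plate used here for mouse skin with graft versus host disease (GVHD), 8 of the 92 genes carry that entry in the plate map, namely Actb, B2m, Gusb, Hprt, Ppia, Rplp0, Tbp and Tfrc. The rule that chose them is that entry, which uses no measured value. The plate asked which cytokine and fibrosis genes differ in the skin after a transfer of CpG-proBs, B-cell progenitors activated through the innate receptor TLR-9. All mice were female Balb/c, irradiated at 5.8 Gy at the age of 10 weeks, and all were grafted from C57BL/6 donors (C57BL/6J in the methods) with 5000000 bone marrow cells depleted of T and B cells and with 1000000 splenocytes. The 3 GVHD controls (animals 1, 2 and 3) had no further cells, whereas the 3 CpG-proB recipients (animals 4, 5 and 6) were also given 750000 CpG-proBs. Back skin was taken at day+70 post-irradiation. Both groups thus carried an allogeneic graft with GVHD, and no skin of a mouse without GVHD was analysed here.

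A reference gene is useful when its mRNA is made at a steady rate, so that its signal follows the amount of RNA in the tube. The 8 genes belong to unrelated machinery. Rplp0 encodes a ribosomal protein, Tbp the TATA-binding protein of transcription initiation, Ppia the protein-folding enzyme cyclophilin A, and Actb the cytoskeletal protein beta-actin. Hprt recycles purines for nucleotide synthesis, Gusb degrades glycosaminoglycans in lysosomes, and Tfrc is the receptor that brings transferrin-bound iron into cells. B2m is the light chain that class I MHC molecules need to reach the cell surface, and its transcription is known to respond to interferons and NF-κB.

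The DNA upstream of the genes was read for elements of that kind. The RefSeq table of promoters (GRCm38.p6) held 7 of the 8 members, without Actb. The 150 bases before the start of B2m and of Ppia are shown, both on the plus strand and 5′ to 3′, B2m because its values moved against those of most other members, and Ppia as the member closest to Actb. Capitals mark, first, the core of the interferon-stimulated response element (GAAA, any 2 bases, GAAA) and, second, the NF-κB consensus.
B2m, chr2:122147537-122147686: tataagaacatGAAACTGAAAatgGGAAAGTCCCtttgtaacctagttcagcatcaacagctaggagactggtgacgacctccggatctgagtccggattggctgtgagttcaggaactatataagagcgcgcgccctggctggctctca
Ppia, chr11:6415717-6415866: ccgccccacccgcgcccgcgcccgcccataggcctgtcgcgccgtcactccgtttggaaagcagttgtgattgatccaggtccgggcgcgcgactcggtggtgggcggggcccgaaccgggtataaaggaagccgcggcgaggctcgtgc
In B2m the interferon element lay 139 to 130 bases and the NF-κB element 126 to 117 bases before the start. Neither was found in the 250 bases before the start of the other members in the table. On either strand, 2.98% of all 32851 promoters in the table held the interferon core and 7.25% the NF-κB consensus. These are matches of letters, and binding was not measured.

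What a well yields is its threshold cycle (Ct), the PCR cycle in which fluorescence passed a fixed level. Abundant cDNA gives a low Ct, and if every cycle doubles the product, 1 cycle less is 2-fold more cDNA. All 8 genes had a Ct in all 6 animals, between 17.98 and 26.62, and the highest was 1.59 cycles below the lowest negative-control well. The positive-control wells lay between 18.04 and 19.15. The tissue label could be checked only in part, since the plate holds no keratin gene. Of the 3 fibroblast markers, Col1a2 had a Ct between 22.82 and 24.03, Col3a1 between 22.92 and 27.10 and Lox between 26.42 and 28.17, where the lowest negative-control well was at 28.21. Acta2, of smooth muscle and myofibroblasts, lay between 21.93 and 23.02.

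Beginning with the machinery of transcription and translation, Rplp0 had a Ct of 18.76, 20.67 and 20.50 in controls 1, 2 and 3 and of 18.72, 20.92 and 20.78 in recipients 4, 5 and 6. Each group held 1 animal with a low Ct and a pair with higher values, so that the groups overlapped (19.98 ± 1.06 against 20.1 ± 1.23, mean ± SD, n = 3 each; exact permutation p = 0.6, two-sided as all tests here). For Tbp (chr17:15499888-15517427), the Ct was 24.22, 26.32 and 25.38 in controls and 25.09, 25.67 and 26.14 in recipients. The recipients lay inside the range of the controls, with a difference in means of 0.33 cycles (exact permutation p = 0.7).

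Actb (chr5:142903115-142907976) had the largest difference of the 8. Its Ct was 18.08, 19.46 and 19.49 in controls and 19.52, 21.03 and 21.35 in recipients. Every recipient was above every control, though recipient 4 and control 3 were only 0.03 cycles apart. The means of 19.0 ± 0.806 and 20.6 ± 0.977 (SD, n = 3 each) differed by 1.62 cycles, with an exact permutation p of 0.1, the smallest that 3 animals against 3 can give. In tissue RNA, fewer cells of a type and less RNA per cell cannot be told apart. Ppia had a Ct within 0.64 cycles of that of Actb in every animal, with 18.18, 20.10 and 19.67 in controls and 19.50, 21.03 and 20.96 in recipients. Its groups overlapped, since control 2 and control 3 were above recipient 4 (difference 1.18 cycles, exact permutation p = 0.3).

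B2m (chr2:122147687-122153082) went the other way. Its Ct was 19.25, 19.49 and 18.75 in controls and 18.05, 17.98 and 19.18 in recipients. Recipients 4 and 5 had the lowest values, while recipient 6 lay between the controls, and the difference of -0.76 cycles had an exact permutation p of 0.2. The only other member with a lower mean Ct in recipients was Gusb, with 25.27, 26.47 and 25.88 in controls and 25.21, 26.06 and 26.11 in recipients. At -0.08 cycles, its groups overlapped almost completely (exact permutation p = 0.9).

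The metabolic genes Hprt and Tfrc were both at higher mean Ct in recipients. Hprt (chrX:52988078-53021660) had 22.45, 25.54 and 25.28 in controls and 24.56, 26.05 and 26.62 in recipients. Control 1 stood far below all other animals, and the range over the 6 was 4.17 cycles, the widest of the 8 genes. Tfrc had 22.34, 24.57 and 23.01 in controls and 23.40, 24.58 and 24.72 in recipients, with control 2 inside the range of the recipients. The groups differed by 1.32 cycles for Hprt (exact permutation p = 0.4) and by 0.93 for Tfrc (exact permutation p = 0.2). Among the 8 genes, then, 6 had a higher mean Ct in recipients, though Tbp and Rplp0 only with control 1 included. Of the 8, 1, Actb, had groups that did not overlap, against 24.4% of all 90 genes with a Ct in every animal.

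The animals also differed in the level of all 8 genes together. The mean Ct of the 8 was 21.1, 22.8 and 22.2 in controls and 21.8, 22.9 and 23.2 in recipients. Control 1 had the lowest mean and recipient 6 the highest, and the groups differed by 0.588 cycles, less than the animals of a group did (exact permutation p = 0.5). Without control 1 the difference was 0.0983 cycles, and with each other animal left out it lay between 0.289 (without recipient 6) and 1.03 (without recipient 4). Amounts of cDNA that differ between animals move all genes alike if the assays are equally efficient, so pairs of genes were compared within each animal.

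Levels of different genes were set side by side after adding to the Ct the log2 of the product length in units of 100 bp, since a longer product binds more dye. The order also depends on the amplification efficiency of each assay, which was not measured. On this length-adjusted scale the order over the 6 animals, from the highest level down, was B2m (19.3), Ppia (19.6), Actb and Rplp0 (20.1 each), Tfrc (23.9), Tbp and Hprt (25.4 each) and Gusb (25.8). The first 4 formed an abundant class that stood 3.86 ± 0.706 cycles (SD, n = 6) above Tfrc, in 6 of 6 animals as judged by Rplp0, its lowest member. Tfrc was above Tbp in 6 of 6 animals as well, by 1.42 ± 0.432 cycles. Inside the abundant class no order held in all animals. B2m was above Ppia in 4 of 6, Ppia above Actb in 5 and Actb above Rplp0 in 3. Among the 3 rarest, Tbp was above Gusb in 6 of 6 animals, by 0.42 ± 0.387 cycles, though in recipient 6 only through the adjustment for length, while Hprt had no fixed place, with Tbp above Hprt in 3 and Hprt above Gusb in 4 of 6. By group means, B2m held place 3 in controls and place 1 in recipients. Ppia and Actb held places 1 and 2 in controls, and in recipients Ppia was level with Rplp0 (20.2 each) and Actb was lowest of the 4 (20.9).

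The difference in Ct between a pair of genes of one animal removes the amount of cDNA if both assays amplify with the same efficiency, which was not measured. B2m minus Actb was 1.17, 0.03 and -0.74 cycles in controls and -1.47, -3.05 and -2.17 in recipients. In control 1 B2m had the higher Ct of the pair and in control 2 the Ct were nearly equal. In all recipients B2m had the lower Ct, by 0.73 cycles or more beyond the nearest control. The mean went from 0.15 ± 0.961 to -2.23 ± 0.792 (SD, n = 3 each), so that the ratio of B2m to Actb was 5.22-fold higher in recipients (exact permutation p = 0.1, the smallest possible). With each animal left out the difference of -2.38 cycles lay between -2.83 and -1.88. In limma over the 89 other genes of the plate with Actb as the reference, B2m had a log2 fold change of 2.38 (SE 0.72, adjusted p = 0.0140). With single animals left out the adjusted p ranged from 0.00105 to 0.131, above 0.05 without control 1, without recipient 5 and without recipient 6. The Ct of Actb enters all 89 values of an animal, which limma does not allow for, so these p-values can be too small. By the same reference 48.3% of all genes passed the threshold of the study, a fold change of at least 1.4 with an unadjusted p of at most 0.05, so that B2m shared its direction with much of the plate.

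Against the other members B2m was also relatively higher in recipients, in 7 of 7 pairs. The groups did not overlap against Ppia (-1.94 cycles), Tfrc (-1.69) and Tbp (-1.09), beside Actb. They overlapped against Hprt (-2.08), Rplp0 (-0.92) and Gusb (-0.68). B2m minus Hprt had the widest spread of all pairs. It was -3.20, -6.05 and -6.53 in controls and -6.51, -8.07 and -7.44 in recipients, and control 1 accounted for much of it, since the difference between groups was -1.05 without that animal. Without control 1 the difference was also smaller against Actb (-1.88), Ppia (-1.33), Tfrc (-1.16), Tbp (-0.50), Gusb (-0.34) and Rplp0 (-0.27).

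**Figure D1:**
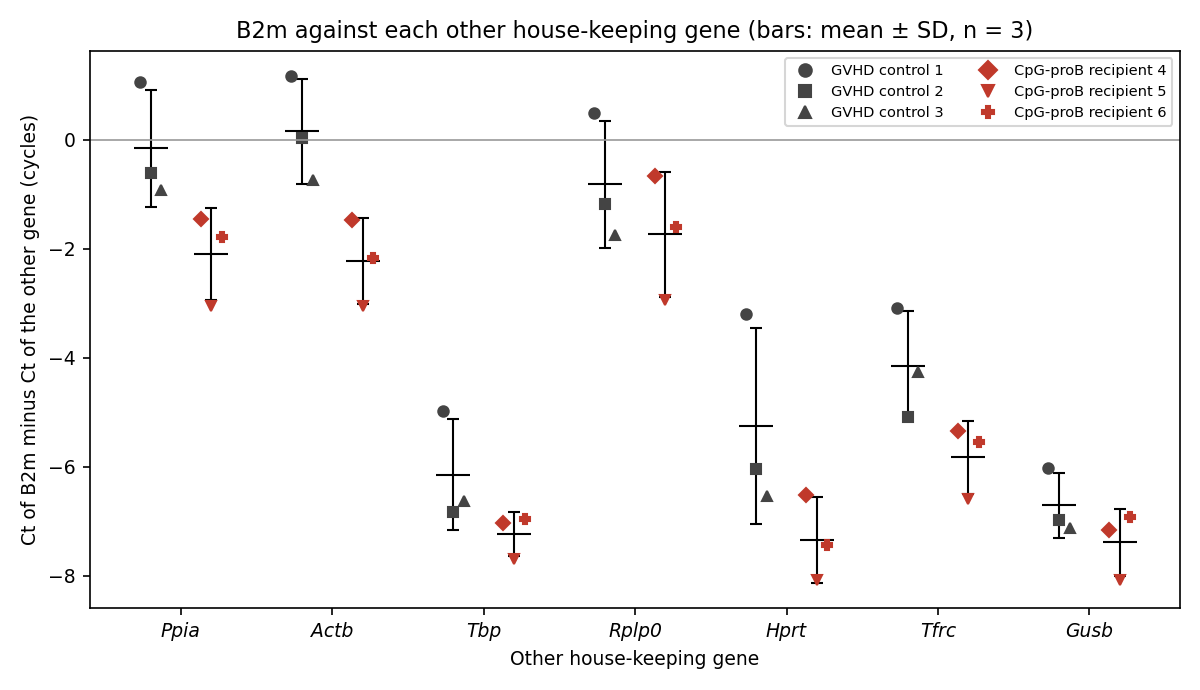
Ct of B2m minus the Ct of each other house-keeping gene in the same animal, in cycles, with points for animals and bars for group means. Lower values mean more B2m. Recipients lie below all controls for Ppia, Actb, Tbp and Tfrc, and the groups overlap for Rplp0, Hprt and Gusb.

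Actb minus Rplp0 compared the cytoskeletal with the ribosomal transcript. It was -0.68, -1.21 and -1.01 in controls and 0.80, 0.11 and 0.57 in recipients. The sign differed between the groups in all 6 animals, and the difference of 1.46 cycles kept between 1.31 and 1.65 with each animal left out. Ppia minus Rplp0 had the same form, from -0.58, -0.57 and -0.83 in controls to 0.78, 0.11 and 0.18 in recipients, a difference of 1.02 cycles. Against Gusb the difference was 1.70 cycles for Actb and 1.26 for Ppia, and for both genes the groups did not overlap. Each of these pairs had an exact permutation p of 0.1.

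Of the 28 pairs that the 8 genes form, 14 (50.0%) had groups that did not overlap. Over all 4005 pairs of the 90 genes this was the case for 26.5%. Pairs share genes and animals and are not independent, and no single pair could fall below an exact p of 0.1. Ppia and Actb were each in 5 such pairs of 7, Tbp and B2m in 4, Rplp0, Tfrc and Gusb in 3 and Hprt in 1. Beside the pairs already given, those were Actb and Tbp (1.30 cycles), Tfrc and Gusb (1.01), Ppia and Tbp (0.85), Tbp and Tfrc (-0.60), Ppia and Actb (-0.44), and Rplp0 and Hprt (-1.16). Groups that are apart stay apart when an animal is left out, so the 15 such pairs without control 1 are no check on the 14.

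**Figure D2:**
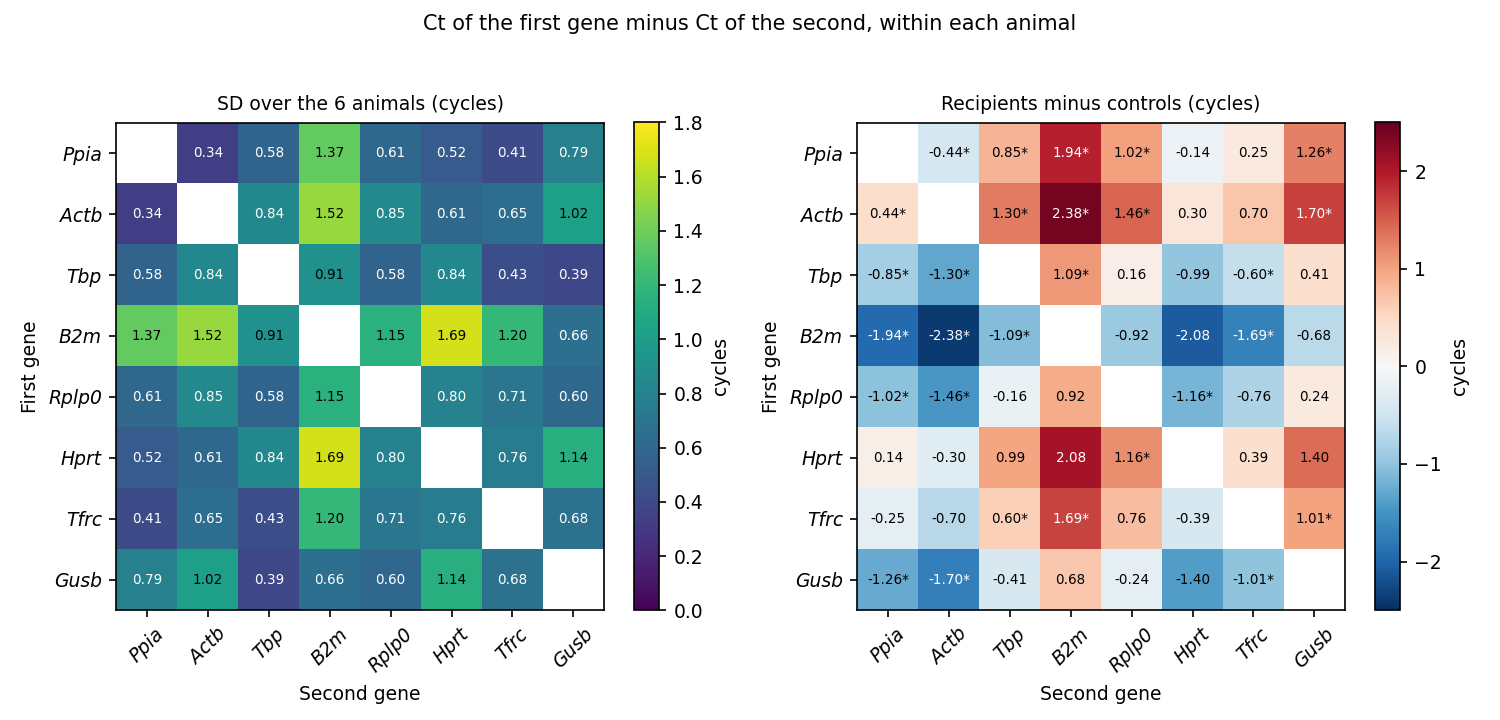
Pairs of house-keeping genes, with the SD of the Ct difference over 6 animals on the left and the difference between groups (recipients minus controls, row gene minus column gene) on the right, both in cycles. An asterisk marks the 14 pairs whose groups do not overlap. B2m has the widest SDs, up to 1.69 against Hprt, and Ppia and Actb the smallest at 0.335.

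As references the 8 genes ranked differently by spread over animals and by shift between groups. The spread of a pair was taken as the SD of its Ct difference over the 6 animals. The 3 tightest pairs were Ppia and Actb (0.335 cycles), Tbp and Gusb (0.387) and Ppia and Tfrc (0.410). Ppia minus Actb was 0.10, 0.64 and 0.18 in controls and -0.02, 0.00 and -0.39 in recipients, so that the tightest pair was also one whose groups were apart. Tbp minus Gusb was -1.05, -0.15 and -0.50 in controls and -0.12, -0.39 and 0.03 in recipients, and its groups overlapped. Without control 1 Tbp and Gusb were the tightest pair (SD 0.215), with Ppia and Actb at 0.374. In Ppia minus Tfrc, the values of -4.16, -4.47 and -3.34 in controls enclosed the -3.90, -3.55 and -3.76 of recipients. The 3 widest pairs all held B2m, with 1.69 against Hprt, 1.52 against Actb and 1.37 against Ppia. Without control 1 the SD of B2m against Hprt was 0.817, less than that of Actb against Gusb (0.935).

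Averaged over its 7 pairs, the spread was lowest for Tbp (0.653 cycles) and Ppia (0.658), followed by Tfrc (0.690), Gusb (0.752), Rplp0 (0.757), Actb (0.832), Hprt (0.907) and B2m (1.21). When spread was taken within groups, Ppia (0.473) and Actb (0.521) were lowest and B2m (0.946) still highest. Actb thus varied little with the other genes among animals of a group. The wide spread of Hprt rested on 1 animal, as without control 1 it (0.539) was level with Tbp (0.540) at the low end. B2m remained at the high end without that animal (0.790), though level there with Actb (0.787). Leaving out the most variable gene stepwise removed B2m, Hprt, Actb, Rplp0, Gusb and Tbp, in this order, and left Ppia with Tfrc.

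In Ct as deposited, the house-keeping genes varied as much as the other genes of the plate. The SD of Ct over the 6 animals had a median of 1.01 cycles for the 8 and of 0.863 for the 82 genes of interest measured in all animals. Hprt (SD 1.47) varied more than 79 of these 82 genes, while Gusb (0.498) varied more than 6 and B2m (0.642) more than 15. In pairs, the median SD was 0.732 between house-keeping genes, 0.934 between a house-keeping gene and a gene of interest and 0.962 between genes of interest. Of the genes of interest, the 2 that ran closest to each member were named. For Tbp these were Myc (SD of the difference 0.213 cycles over 6 animals) and Akt1 (0.281), and for Gusb they were Acta2 (0.232) and Smad3 (0.305). Rplp0 ran closest to Cebpb (0.356) and Akt1 (0.376), Ppia to Il13ra2 (0.349) and Bmp7 (0.356), and Tfrc to Il22 (0.377) and Fasl (0.380). The nearest genes were farther off for B2m, with Mmp2 (0.406) and Cav1 (0.426), for Hprt, with Col3a1 (0.487) and Smad7 (0.558), and for Actb, with Il13ra2 (0.516) and Cxcr4 (0.542). Il13ra2 was no lower in Ct than the lowest negative-control well in 6 of 6 animals, and Il22 in 2.

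The methods name a reference of 6 house-keeping genes without saying which. Taken here, from earlier work on these data, was the mean Ct of all members but Actb and Hprt. Relative to it, Actb was the 1 member of 8 past the threshold of the study. Over all 90 genes 15.6% passed it. Actb had a log2 fold change of -1.33 (SE 0.46), with an adjusted p of 0.153 in limma. With the mean of Ppia, Tbp and Actb as the reference it was -0.58 and no longer passed. No member had an adjusted p of at most 0.05, while 1 had an unadjusted p that low and 2 of the 90 genes passed with adjustment. The groups did not overlap for Ppia, Actb, B2m and Tfrc, 4 of 8, against 23.3% of all genes. B2m had a log2 fold change of 1.05 (SE 0.53, limma adjusted p = 0.328), Ppia of -0.89 (SE 0.45, limma adjusted p = 0.328), Hprt of -1.03 (SE 0.55, limma adjusted p = 0.343) and Tfrc of -0.63 (SE 0.45, limma adjusted p = 0.401). Values nearer to 0 were found for Gusb (0.37), Rplp0 (0.13) and Tbp (-0.03). All but Actb and Hprt are part of the reference they are set against here, which draws their values towards 0.

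How the other genes of the plate came out differed with the choice among the 8. With Actb alone as the reference, 38 of the 82 genes of interest passed the threshold, all 38 higher in recipients. With B2m alone, 24 passed, 23 of them lower in recipients. Ppia (26 genes), Tfrc (24) and Hprt (14) gave higher genes only, as did Actb. Between these came Tbp with 10 higher and 2 lower, Rplp0 with 3 and 1, and Gusb with 7 and 13. The median log2 fold change of the 82 genes ran from -0.94 with B2m to 1.44 with Actb, beside 0.11 with the 6-gene reference, by which 10 genes were higher and 4 lower. That split rested on single animals, with 6 and 6 without control 1, 12 and 1 without control 3 and 15 and 1 without recipient 4, and it was 12 and 0 with the mean of all 8 as the reference. With adjustment in limma, 24 genes passed with Actb, 10 with B2m, 10 with Tfrc, 9 with Ppia, 2 each with Tbp and Hprt, 1 with Gusb and none with Rplp0, where 4 had an unadjusted p of at most 0.05. As the Ct of a single reference enters all 82 values of an animal, the p-values behind these counts can be too small.

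**Figure D3:**
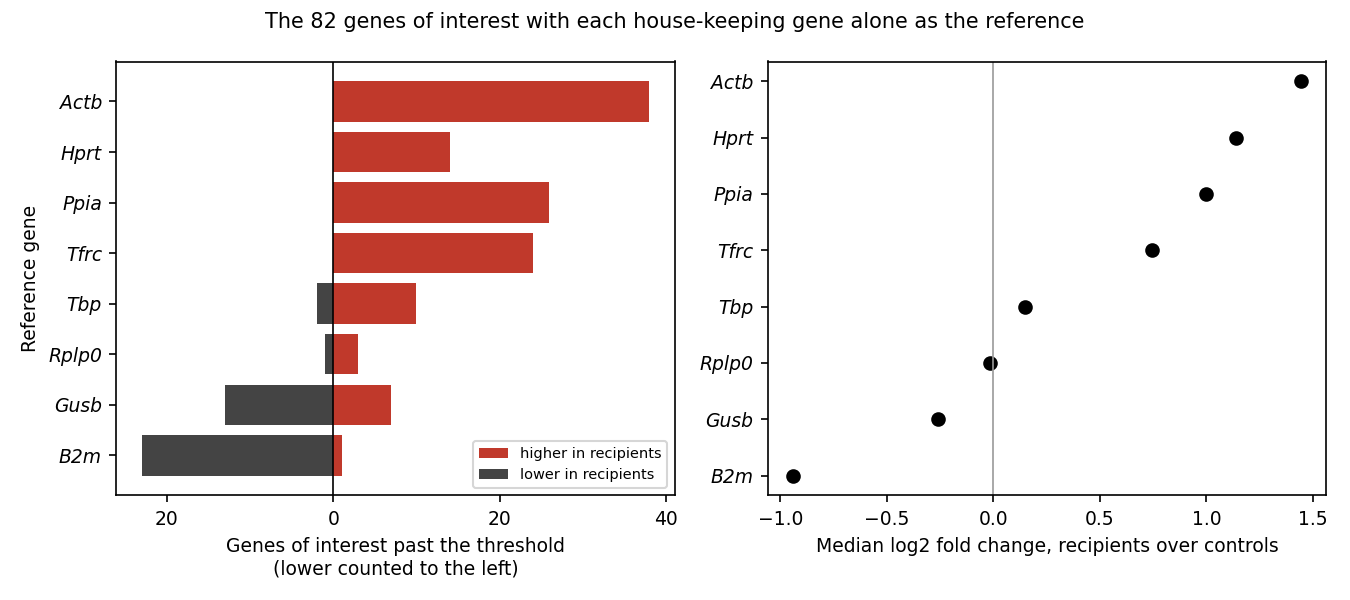
The 82 genes of interest with each house-keeping gene alone as the reference, showing the number of genes past the threshold in each direction and the median log2 fold change (recipients over controls). Genes are ordered by that median, from -0.94 for B2m to 1.44 for Actb.

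A change of reference moves the log2 fold change of every gene by one and the same amount, so that the number of signs that turn follows from the distance between references and says nothing of single genes. Over the 8 references the sign turned for 69 of the 82 genes and stayed for 13, 11 positive and 2 negative. At least 1 of the 8 references put 61 genes past the threshold. Only Il12rb2, a chain of the IL-12 receptor that was picked out after its values were seen, passed with all 8. It was also the 1 gene that passed with both Actb and B2m.

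Gene lists related to what the members do were set against Actb and B2m. The 5 genes of actin cytoskeleton and adhesion (Acta2, Ctgf, Thbs1, Itgb1 and Cav1) had no member past the threshold with the 6-gene reference, by which 17.1% of the 82 genes of interest passed. Their median log2 fold change was 0.64, against 0.11 for the 82. Against Actb all 5 passed, higher in recipients, with a median of 1.97 where that of the 82 was 1.44 and 46.3% of them passed. Against B2m none of the 5 passed and all 5 values were negative, with a median of -0.41 where that of the 82 was -0.94 and 29.3% of them passed. The 7 genes of interferon and type 1 immunity had 1 member past the threshold with the 6-gene reference, Il12rb2, and a median of 0.35. Against Actb, 4 of the 7 passed (median 1.68), and against B2m 2 did, Il12rb2 higher and Il27 lower (median -0.71), both shares to be read beside those of the 82 genes. Part of this list was not above background, since the Ct was no lower than the lowest negative-control well in 6 of 6 animals for Il12rb1, which is among the 4, and for Tbx21, and in 5 of 6 for Il27. Among 4 genes of growth and transcription (Myc, Akt1, Sp1 and Vegfa), none passed with the 6-gene reference (median 0.27), 3 did against Actb (1.60), and none did against B2m (-0.79), and these medians lay close to those of the 82.

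Markers of cell types that skin can hold are given beside these results. The mean Ct of the 3 macrophage markers (Csf1r, Adgre1 and Cd68) lay between 26.3 and 27.5 in controls and between 26.6 and 27.2 in recipients. That of the 4 markers of T and NK cells lay between 26.8 and 29.8 in controls and between 27.5 and 28.7 in recipients. With the 6-gene reference Csf1r passed the threshold, higher in recipients (log2 fold change 1.30), whereas Adgre1 (-0.60) and Cd68 (-0.56) had negative values and did not pass. None of the T and NK cell markers passed (median -0.01). The Ct was no lower than that of the lowest negative-control well in 6 animals for Tbx21, in 2 for Eomes, in 1 each for Gzmb and Ifng and in 3 for Adgre1. Of the fibroblast markers Col3a1 passed, lower in recipients (-1.45), and Col1a2 (0.16) and Lox (1.02) did not, nor did Acta2 (0.48). Fcer2a also passed, lower in recipients (-1.72). The limma adjusted p was 0.183 for Csf1r and for Fcer2a and 0.180 for Col3a1. This mature B-cell marker had a higher Ct than the lowest negative-control well in 6 of 6 animals, and Kit had a Ct in 3. The part of the cell makeup of the samples in the differences between house-keeping genes was not tested.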

How the data were processed

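The authors extracted total RNA from back skin, made cDNA with random primers and ran a custom SYBR Green plate of 96 wells per animal. They deposited 1 Ct per well and animal (unit: cycles), not normalized, and how the Ct was called is not given in the sources used here. The authors also deposited a table of ΔΔCt and fold values of their own group comparison, whose values were not used here. Samples were grouped by the labels, which count 3 animals per group.

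All 8 house-keeping genes were found, and their transcripts matched RefSeq's GRCm38.p6 gene table. Products were 80 bp (Ppia), 118 bp (Actb), 93 bp (Tbp), 147 bp (B2m), 102 bp (Rplp0), 122 bp (Hprt), 113 bp (Tfrc) and 97 bp (Gusb). The primers lie in neighbouring exons, except for B2m, where both lie in exon 2. Pairs were compared as differences in Ct by exact permutation over the 20 splits of the animals. The −ΔCt, a log2 value at full amplification efficiency, which was not measured, was compared with limma 3.58.1 (lmFit and eBayes in R 4.3.3). The prior degrees of freedom were 9.06 with the 6-gene reference and differed with other references. With B2m, Rplp0 or Hprt alone as the reference, all other members had one and the same SE (0.735, 0.837 and 0.974). There the variance was pooled over all genes. Benjamini-Hochberg adjustment ran across the 90 genes with a Ct in all animals, or across the 82 of interest among them where those are counted. Kit and Mmp1a were left out for missing wells. The 6 genes of the reference come from earlier work, which matched them to the deposited ΔΔCt values, and were not derived again. The members, lists and tests were chosen with earlier results of these data known. Figures were drawn with matplotlib 3.10.9. The steps were tested on simulated data.

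Named were all 8 members, the 3 tightest and 3 widest pairs, all pairs whose groups did not overlap, the 2 nearest genes of interest of each member and list members past the threshold. Alternatives changed the reference, the factor per cycle (1.9), the variance model, the filter, and the threshold, or left out 1 animal at a time. The limma fits of B2m against Actb, with all animals and with each left out, pair spreads with animals left out and within groups, and the mean Ct without B2m were added after seeing the data.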

Additional observations from a re-analysis of the deposited data

How the results depend on the processing

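Relative to the 6-gene reference 1 house-keeping gene passed the threshold. With the mean of all 8, with the other 7 as the reference of each, with Ppia, Tbp and Actb, without moderation of variance, and with low genes left out it was 2. With Ppia, Tbp and Actb these were B2m and Gusb, and Actb no longer passed (-0.58). With the median of the genes of interest, and with trend and robust variances, it was 4, by adjusted p it was 0 (1 had an unadjusted p of at most 0.05), and with single animals left out it was 1 to 3, the 3 being reached without control 3 and without recipient 4. The log2 fold change of Tbp changed sign with all 8 (0.26), the other 7 (0.30) and Ppia, Tbp and Actb (0.72), and ranged from -0.15 to 0.10 with animals left out. Rplp0 turned with the median (-0.29) and with no reference (-0.16), and ranged from -0.19 to 0.39 with animals left out. Tfrc turned with Ppia, Tbp and Actb (0.12) and Gusb with the median (-0.042). Without control 1, the log2 fold change of B2m was 0.60 and that of Hprt -0.45. Over the 8 genes and 15 alternatives each, 92 of 120 values kept both sign and side of the threshold, 16 newly passed it and 1, the Actb value just given, no longer did. Of the genes of interest 14 passed with the 6-gene reference, 12 with the mean of all 8, 22 with the median and 6 with no reference. With single animals left out 11 to 16 did. It was 26 with Ppia, 38 with Actb, 24 with B2m, 24 with Tfrc and 4 with Rplp0. For the other alternatives the share of all genes past the threshold is not given here. Asking for a gap of more than 0.25 cycles between groups left 9 of the 14 pairs, and leaving out single animals, which makes overlap rarer, gave 15 to 20. The share over all pairs of the plate was not counted for these settings, so the counts have no background to be read beside. B2m minus Actb stayed between -2.83 and -1.88 with animals left out. The mean Ct without B2m differed by 0.78 cycles (exact permutation p = 0.4). No paired analysis was possible because the groups share no replicate numbers. With 3 animals per group and 1 Ct per well, only differences well beyond the spread between animals can be seen, and the cause of these changes was not tested.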
